A study of Homo sapiens with 12 samples.

Results

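The 33 genes described here encode enzymes and carriers of purine, pyrimidine and folate metabolism. They were listed by gene name, with earlier results of these data known. All 33 of 33 were read on the array, among 18132 genes in all. The RNA came from Kelly and BE(2)-C, human neuroblastoma cell lines that carry many copies of MYCN. Cells of each line had received either DMSO, the solvent, or JQ1 at 1 µM, and were collected after 24 h. JQ1 is an inhibitor of BET bromodomain proteins, which read acetylated histones, and it frees them from chromatin. There were thus 4 groups, Kelly DMSO, Kelly JQ1, BE(2)-C DMSO and BE(2)-C JQ1, of 3 arrays each. Each group was 1 cell line at 1 dose and 1 time, and the labels name no other agent or engineered allele. The labels do not say whether the 3 samples of a group came from separate cultures, so the p-values cover just the spread among these samples, and that spread may be technical. The RNA was taken from whole cultures, in which fewer cells of a kind and less RNA per cell cannot be told apart.

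Cells build pyrimidines as a free ring that is then joined to phosphoribosyl pyrophosphate, and build purines atom by atom on that same sugar phosphate. Both routes start from amino acids, and purine synthesis and thymidylate synthesis also use carbon units carried by folate. Salvage enzymes and membrane carriers recover bases and nucleosides, and ribonucleotide reductase turns ribonucleotides into the building blocks of DNA. MYC family proteins are known to bind and raise many genes of these routes in growing cells.

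Values are log2 of the deposited array intensity, on a scale where 1 unit is a 2-fold step, and each gene was read by its brightest probe set. Levels are compared only between groups for the same gene, since probe sets differ in brightness for reasons other than RNA amount. The mean log2 intensity of the 33 genes lay between 6.15 and 12.42, and a set of 23 background probe sets had medians of 3.91 to 4.55 per array. As a check of the treatment, HEXIM1, an inhibitor of transcription elongation that BET inhibitors commonly raise, rose by 1.43 in Kelly (adjusted p = 0.000376, limma), with 2.22 for BE(2)-C (adjusted p = 2.81e-05). The log2 fold change of MYCN was -0.34 in Kelly (adjusted p = 0.136), with -0.33 for BE(2)-C (adjusted p = 0.209), and its fall of 0.34 in the average (adjusted p = 0.0307) was lost on leaving out any 1 of 8 arrays, those of BE(2)-C except DMSO replicate 1, Kelly DMSO replicate 1 or 2 and Kelly JQ1 replicate 2 (0.0575 to 0.09). That call was also lost with the replicate number as a block (0.0762) and with probe sets of broader design left out, where the value was -0.19 (0.481). Genes of the neuroblastoma lineage, 6 of 7 listed markers measured, had group means of 7.35 to 13.1, and moved both ways, DBH and TH lower in both lines and PHOX2A and GATA3 higher in BE(2)-C, while 4 of 4 haematopoietic markers lay at 3.84 to 7.08. Of 3 epithelial markers KRT19 fell in both lines. Of 4 measured fibroblast and Schwann cell markers, DCN and LUM fell in BE(2)-C, where log2 of the summed marker intensity per array was 7.58 to 8.26 with DMSO and 6.48 to 6.53 with JQ1, beside 6.26 to 6.57 and 6.35 to 6.60 in Kelly. The part of these markers in the results was not tested. The spiked hybridization controls, whose level does not depend on the cells, had a mean of 11.90 ± 1.29 (SD, n = 3) for Kelly DMSO, 12.94 ± 0.69 for Kelly JQ1, 11.20 ± 1.54 for BE(2)-C DMSO and 11.41 ± 1.20 for BE(2)-C JQ1. These ranges overlapped, but 17 of the 33 genes (51.5%) followed the control signal across arrays (a slope past the same threshold in limma), as did 53.5% of all genes. The direction differed: 14 of those 17 slopes were negative and 3 positive, whereas among all genes 4082 were negative and 5610 positive. Each call of the 33 genes that a fit with that signal as a covariate changed is given with its gene. That fit added calls and ended none, but its median changes, given below, were smaller.

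Most of the 33 genes had lower mean levels with JQ1, by modest amounts. In the average of both lines 8 genes fell (24.2%) and 1 rose (3.03%), against 7.04% lower, 4.02% higher and 11.1% in all among all genes tested. The genes that fell were CAD, CTPS2, PFAS, PAICS, IMPDH1, GMPS, PRPS1 and MTHFD1, and the gene that rose was IMPDH2. The median log2 fold change of the 33 genes was -0.40 in this average, beside 0.06 over all genes. In Kelly alone 1 gene fell (CTPS2, 3.03%) and 1 rose (TK1, 3.03%), beside 4.73% lower, 1.76% higher and 6.5% in all among all genes. For BE(2)-C alone 3 genes passed, all lower (PFAS, IMPDH1 and GMPS, 9.09%), beside 2.51% lower, 2.18% higher and 4.69% in all among all genes. The counts of the single lines depended on single arrays, among all genes as well. Without Kelly DMSO replicate 3 there were 6 genes called in Kelly, and 1 gene on leaving out a single one of Kelly DMSO 1, Kelly DMSO 2, Kelly JQ1 2, BE(2)-C JQ1 1, BE(2)-C JQ1 2 and BE(2)-C DMSO 2. Of all genes 12% passed in Kelly without Kelly DMSO replicate 3, and 3.33% to 5.22% without each of those other arrays. The BE(2)-C count was 6 without Kelly JQ1 replicate 3 (beside 6.67% of all genes) and 1 without any 1 of the BE(2)-C JQ1 replicates (beside 1.78% to 2.6%). With the control signal as covariate 8 genes passed in Kelly (3 higher, 5 lower), beside 12.6% of all genes, 13 passed in BE(2)-C (1 higher, 12 lower), beside 15.2%, and 12 passed in the average (1 higher, 11 lower), beside 20.3%. The median change of the 33 genes was smaller with the covariate, at -0.15 in Kelly, -0.37 in BE(2)-C and -0.26 in the average. Without the covariate these medians were -0.34, -0.41 and -0.40. The medians over all genes with the covariate were 0.03, -0.02 and 0.01. With the replicate number as a block, which pairs arrays of the same number, 2 passed in Kelly (beside 8.4% of all genes), 3 in BE(2)-C (4.37%) and 12 in the average (11.6%). The block was applied in each line, though in BE(2)-C the numbers did not pair the arrays.

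**Figure D1:**
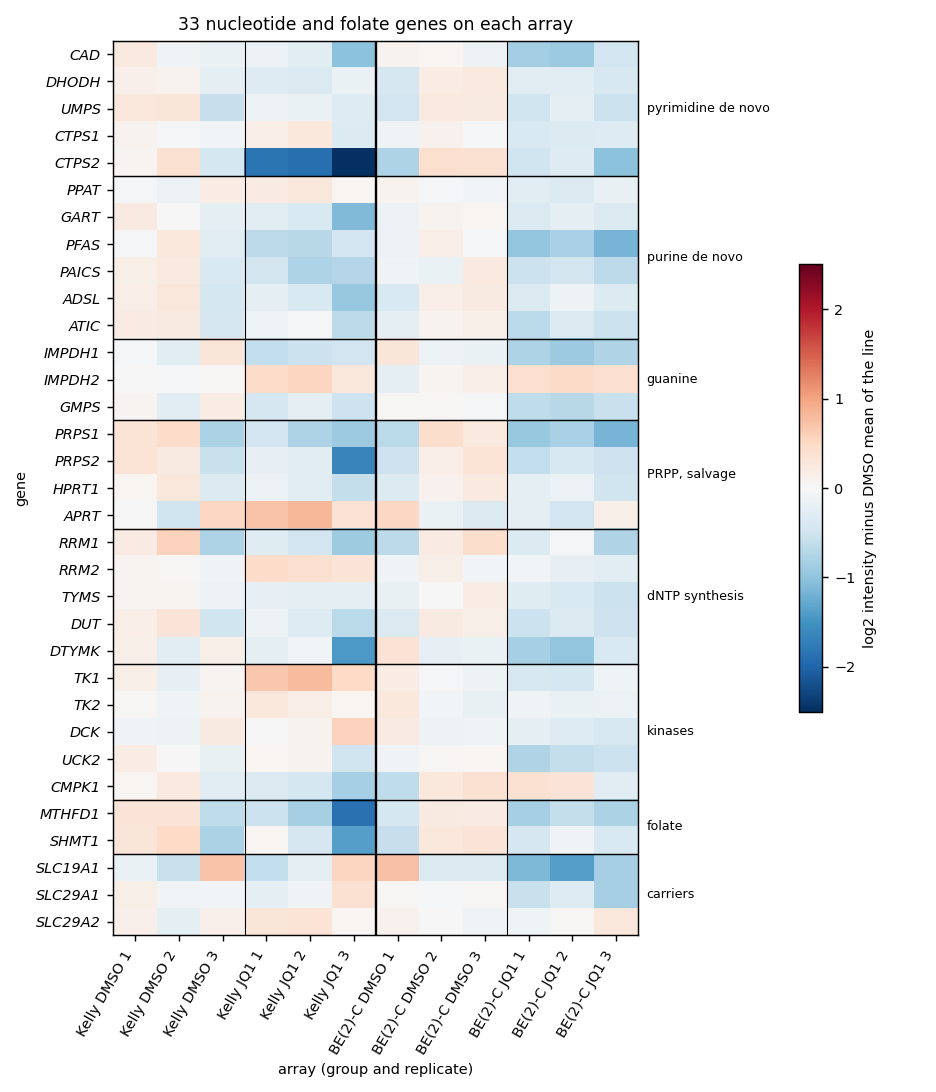
Heat map of the 33 genes (rows, grouped by branch) on each of the 12 arrays (columns). Colour gives log2 intensity minus the mean of the 3 DMSO arrays of the same line, blue for lower and red for higher; CTPS2 is darkest on the 3 Kelly JQ1 arrays, and IMPDH2 is red on all 6 JQ1 arrays.

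A lower mean was more common than a call. Fold changes were negative in 23 of 33 genes in Kelly (69.7%, beside 40.63% of all genes) and in 30 of 33 in BE(2)-C (90.9%, beside 51.59%). They were negative in both lines in 22 genes (66.67%, beside 23.53% of all genes) and positive in both in 2, IMPDH2 and SLC29A2. A further 8 genes were positive in Kelly and negative in BE(2)-C, among them TK1, RRM2 and APRT, and CMPK1 was the 1 gene with the opposite pattern. Every JQ1 array lay below every DMSO array in 7 genes in Kelly (21.2%, beside 11.6% of all genes) and in 18 genes in BE(2)-C (54.5%, beside 10.7%). Every JQ1 array lay above in 3 genes in Kelly (IMPDH2, RRM2 and TK1, 9.09%, beside 12.1%) and in 1 in BE(2)-C (IMPDH2, 3.03%, beside 11.5%). JQ1 lay wholly below DMSO in both lines for GART, PFAS, PAICS, IMPDH1 and TYMS (15.2%, beside 4.73% of all genes), and wholly above in both for IMPDH2 alone among the 33 (3.03%, beside 2.8%). The limma test of the difference between the lines (the BE(2)-C effect minus the Kelly effect) called 0 of the 33 genes, beside 0.557% of all genes, and 5 had an unadjusted p under 0.05 (CTPS2, PPAT, RRM2, TK1 and SLC29A1). With the control signal as covariate that test called 2 genes, CTPS2 and TK1, beside 3.78% of all genes, and with the replicate number as a block it called 0, beside 0.552%.

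**Figure D2:**
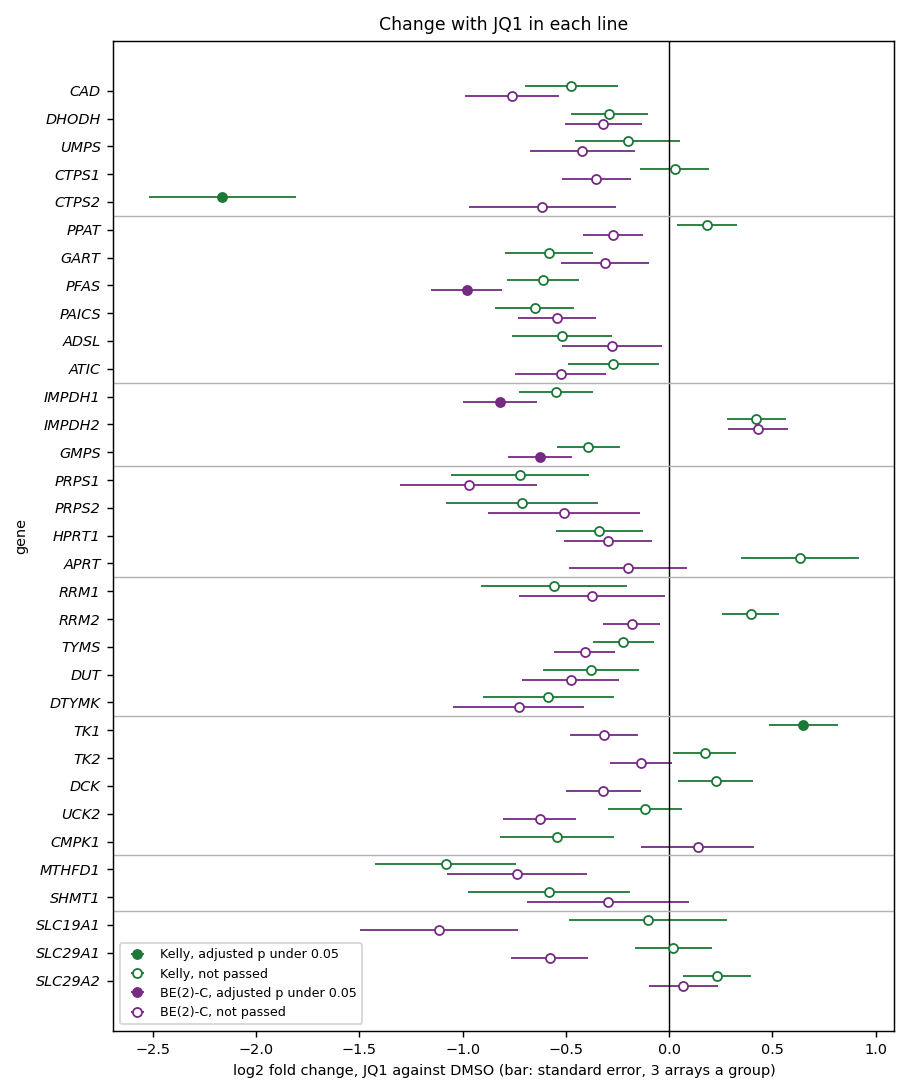
Log2 fold change of JQ1 against DMSO for each gene in Kelly (green) and BE(2)-C (purple), with the standard error of the fit as a bar and filled points for an adjusted p under 0.05. The Kelly value of CTPS2, at -2.16, lies farthest from 0, and most other points lie between 0 and -1.

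In the average, the guanine branch held opposite changes in the paired isoforms of its first enzyme. IMP dehydrogenase makes the committed step to GMP and exists as IMPDH1 and IMPDH2, and GMPS then adds the amino group. IMPDH1 read 11.51, 11.30 and 11.85 on the Kelly DMSO arrays and 10.93, 11.01 and 11.06 on the Kelly JQ1 arrays. IMPDH1 in BE(2)-C read 12.03, 11.57 and 11.55 with DMSO and 10.94, 10.80 and 10.96 with JQ1. All 6 JQ1 values were below all DMSO values of their line. IMPDH1 fell by 0.82 in BE(2)-C (SE 0.18, adjusted p = 0.0202), its change in Kelly was -0.55 (adjusted p = 0.0931), and it fell by 0.68 in the average (SE 0.13, adjusted p = 0.00349, limma). The BE(2)-C call was lost without BE(2)-C DMSO replicate 1 (adjusted p = 0.0586) or BE(2)-C JQ1 replicate 1 (0.0781), 2 (0.0984) or 3 (0.0573), and with quantile normalization (0.0516), whereas the average passed under each alternative run, with adjusted p from 2.39e-05 to 0.0249. With the control covariate the Kelly value, -0.70, passed as well (adjusted p = 0.00165).

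IMPDH2, the isoform usually called the inducible one, ran the other way. It read 12.13, 12.09 and 12.14 with DMSO and 12.58, 12.66 and 12.40 with JQ1 in Kelly. The BE(2)-C arrays of IMPDH2 read 11.58, 11.86 and 11.96 with DMSO and 12.21, 12.27 and 12.21 with JQ1. Each JQ1 array was above each DMSO array of its line. The rise was 0.43 in the average (SE 0.10, adjusted p = 0.0169, from 0.00155 to 0.0487 over the alternatives), beside 0.42 in Kelly (adjusted p = 0.108) and 0.43 for BE(2)-C (adjusted p = 0.128). Both lines passed with the control covariate, at 0.49 (adjusted p = 0.0202) and 0.44 (0.0193), and Kelly also with quantile normalization (0.0247). Within an array, the ratio of IMPDH1 to IMPDH2 was 1.96-fold lower with JQ1 in Kelly and 2.38-fold lower in BE(2)-C, with all JQ1 ratios below all DMSO ratios in both lines. That ratio shows unequal change of the isoforms and was not tested.

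The array reads both isoforms with several probe sets, which gave the same direction. When every probe set was tested on its own, 3 of 4 IMPDH1 probe sets and 6 of 6 IMPDH2 probe sets passed in the average, beside 7.53% of all probe sets. The IMPDH1 probe sets had changes from -0.55 to -0.23 in Kelly and from -0.84 to -0.43 in BE(2)-C. Those of IMPDH2 ranged from 0.39 to 0.51 in Kelly and from 0.34 to 0.43 in BE(2)-C.

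**Figure D3:**
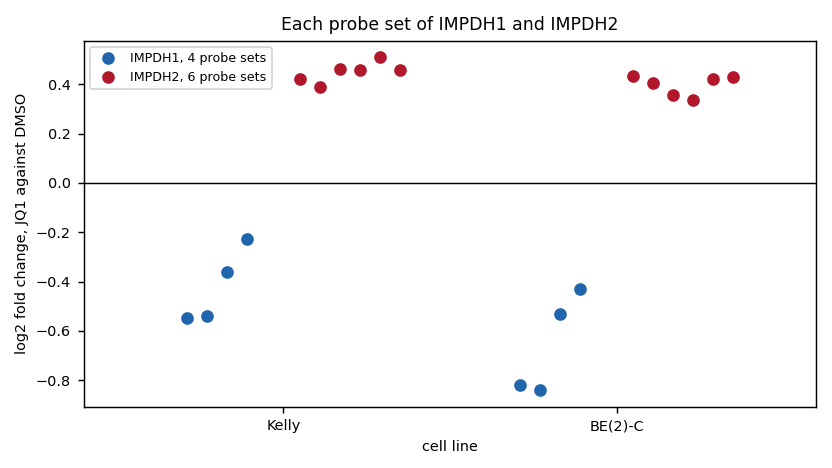
Log2 fold change of JQ1 against DMSO for each probe set of IMPDH1 (blue, 4 probe sets) and IMPDH2 (red, 6 probe sets) in each line. All points of IMPDH1 lie below 0 and all points of IMPDH2 above it, in Kelly and in BE(2)-C.

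GMPS, the GMP synthetase, read 11.26, 10.93 and 11.38 with DMSO and 10.78, 10.95 and 10.68 with JQ1 in Kelly, where the groups overlapped. For GMPS the BE(2)-C arrays gave 10.65, 10.63 and 10.56 with DMSO and 9.98, 9.92 and 10.06 with JQ1, with no overlap. It fell by 0.51 in the average (SE 0.11, adjusted p = 0.00866, at most 0.0414 over the alternatives). It fell by 0.62 in BE(2)-C alone (SE 0.15, adjusted p = 0.0373), a call that was lost with the replicate number as a block (adjusted p = 0.0934), with quantile normalization (0.055) and on leaving out any 1 of 8 arrays, namely the 6 of BE(2)-C, Kelly DMSO replicate 1 and Kelly JQ1 replicate 1 (0.054 to 0.151). The Kelly value passed with the control covariate (-0.46, adjusted p = 0.0391). The 1 probe set of GMPS is of the broader design, so leaving out that design could not change its value.

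In the 6 genes of the purine ring pathway, PFAS and PAICS passed in the average, both lower. The branch had a median change of -0.55 in Kelly, -0.42 in BE(2)-C and -0.42 in the average. PFAS, which makes the fourth intermediate of the ring from glutamine, read 10.43, 10.74 and 10.20 with DMSO and 9.80, 9.77 and 9.97 with JQ1 in Kelly. PFAS in BE(2)-C gave 10.02, 10.33 and 10.13 with DMSO and 9.18, 9.36 and 9.00 with JQ1. All JQ1 arrays were below all DMSO arrays of their line. PFAS fell by 0.98 in BE(2)-C (SE 0.17, 1.97-fold, adjusted p = 0.00646) and by 0.80 in the average (SE 0.12, adjusted p = 0.00108), beside -0.61 in Kelly (adjusted p = 0.0559, or 0.0337 with the control covariate and 0.0365 with an offset of 16). The PFAS call rested on 1 of its 4 probe sets, the brightest, of a design that can also bind related transcripts. With the mean of the probe sets the change was -0.47 in BE(2)-C (adjusted p = 0.0681) and -0.31 in the average (adjusted p = 0.055), and with probe sets of that design left out it was -0.30 (0.367) and -0.21 (0.238).

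PAICS, a fused carboxylase and synthetase of later steps, read 11.67, 11.76 and 11.14 with DMSO and 11.07, 10.76 and 10.79 with JQ1 in Kelly. PAICS in BE(2)-C read 11.19, 11.12 and 11.53 with DMSO and 10.75, 10.83 and 10.63 with JQ1. The groups did not overlap in either line, and the change was -0.65 in Kelly (adjusted p = 0.0607) and -0.54 in BE(2)-C (adjusted p = 0.146). It fell by 0.60 in the average (SE 0.13, adjusted p = 0.0114, from 0.00216 to 0.0387 over the alternatives). The 2 probe sets of PAICS are of the design that can also bind related transcripts, so leaving out that design could not change its value. With the control covariate each line passed, at -0.51 in Kelly (adjusted p = 0.0352) and -0.51 in BE(2)-C (0.0206), and Kelly also passed with an offset of 16 (0.0483) or the trend and robust prior (0.0481).

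PAICS shares its start region with PPAT, the amidotransferase that opens the purine route and is transcribed the other way. PPAT read 10.98, 10.89 and 11.22 with DMSO and 11.24, 11.32 and 11.07 with JQ1 in Kelly, and 10.83, 10.72 and 10.68 against 10.46, 10.39 and 10.57 in BE(2)-C. Its log2 fold changes were 0.18 in Kelly (adjusted p = 0.457) and -0.27 in BE(2)-C (adjusted p = 0.447), neither past the threshold. In RefSeq GRCh38.p14 the start of PPAT and 1 of 3 listed starts of PAICS lie 137 bases apart on chromosome 4. Both promoter windows, each from 250 bases before to 50 bases after a start, hold the same E-box, CACGTG, a motif that MYC proteins are known to bind and that reads the same on both strands. It is shown in capitals as each gene reads it, 5′ to 3′, at chr4:56435780-56435809 on the minus strand for PPAT and chr4:56435772-56435801 on the plus strand for PAICS, followed by the E-boxes of ATIC, which closes the ring, at chr2:215312001-215312030 and chr2:215312076-215312105 on the plus strand.
PPAT: aacggagatttcCACGTGcagcaaatacag
PAICS: ctggaaagctgtatttgctgCACGTGgaaa
ATIC, first: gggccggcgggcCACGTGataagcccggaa
ATIC, second: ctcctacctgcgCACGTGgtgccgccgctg
The shared E-box begins 182 bases before the start of PPAT and 40 bases after that of PAICS, and those of ATIC begin 46 bases before and 29 bases after its start.

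Promoter windows were found for 30 of the 33 genes, not for ADSL, IMPDH2 and SLC29A2. An E-box was present in 8 of the 30 (26.7%), namely DHODH, PPAT, PAICS, ATIC, DCK, MTHFD1, SLC19A1 and SLC29A1, beside 8.77% of 27305 genes. Counted by window, it was 8 of 45 (17.8%) beside 7.26% of 35116. Of the 8 genes that fell in the average 2 held it (PAICS and MTHFD1), and of the 22 with a window that did not pass 6 held it. No E-box overlapped a match of the E2F motif described further on. A match describes letters in this window and shows no binding, and the share was not tested.

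The other purine ring genes did not pass in the fit without covariate or block. GART, which carries out 3 steps of the ring, had every JQ1 array below every DMSO array in both lines. It gave log2 values (JQ1 minus DMSO) of -0.58 for Kelly and -0.31 in BE(2)-C, with an average of -0.45 (adjusted p = 0.0833, limma). All 5 of its probe sets had negative averages, and 1 passed in the average when tested singly (-0.57, adjusted p = 0.00991). Its average passed with the replicate number as a block (adjusted p = 0.0375), the mean of the probe sets (0.0178) and quantile normalization (0.0456). ATIC had a Kelly log2 fold change of -0.27 and a BE(2)-C one of -0.52, with an average of -0.40 (adjusted p = 0.141, or 0.0454 with the block), and its BE(2)-C value passed with the control covariate (-0.49, 0.0497). ADSL, a lyase that acts at 2 steps, had log2 fold changes of -0.52 and -0.28, with overlapping groups in both lines.

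Among the 5 pyrimidine ring genes CAD and CTPS2 passed in the average, both lower, with a median of -0.31. CTPS2, 1 of the isoforms of CTP synthetase, the last step to CTP, showed the widest change of the set. It read 8.28, 8.59 and 7.78 with DMSO and 6.39, 6.34 and 5.43 with JQ1 in Kelly, all JQ1 arrays lying more than 1 unit below all DMSO arrays. The CTPS2 values in BE(2)-C were 7.52, 8.70 and 8.67 with DMSO and 7.80, 7.98 and 7.27 with JQ1, and the groups overlapped, with the first DMSO array low. CTPS2 fell by 2.16 in Kelly (SE 0.36, 4.48-fold, adjusted p = 0.00278) and passed there under each alternative run (2.2e-05 to 0.0168). The change in BE(2)-C was -0.61 (adjusted p = 0.52, or 0.0404 with the control covariate). The difference between the lines was 1.55 (SE 0.50) and did not pass (adjusted p = 0.27), but with the control signal as covariate the Kelly change was -1.76 and the difference, 1.23, passed (adjusted p = 0.0123). The second, dimmer probe set of CTPS2 (mean 5.29) gave -1.09 in Kelly and -0.78 in the average. Tested singly it passed in neither (adjusted p = 0.126 and 0.0973, limma). The sister isoform CTPS1 had a Kelly log2 fold change of 0.03 (adjusted p = 0.938) and a BE(2)-C one of -0.35 (adjusted p = 0.353), and the within-array ratio of CTPS1 to CTPS2 was 4.56-fold higher with JQ1 in Kelly, with no overlap, and 1.20-fold higher in BE(2)-C, with overlap.

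CAD, the fused enzyme of the opening 3 steps and a textbook MYC target, read 10.15, 9.82 and 9.75 with DMSO and 9.77, 9.65 and 8.88 with JQ1 in Kelly. CAD in BE(2)-C read 9.91, 9.87 and 9.70 with DMSO and 8.96, 8.91 and 9.34 with JQ1. The groups overlapped in Kelly and were apart in BE(2)-C. CAD fell by 0.62 in the average (SE 0.16, adjusted p = 0.0253), with -0.47 in Kelly (adjusted p = 0.238) and -0.76 in BE(2)-C (adjusted p = 0.0834). The BE(2)-C value passed with the control covariate (0.0265), quantile normalization (0.0456) and its arrays fitted alone (0.0429). The call in the average was lost without Kelly DMSO replicate 1 (adjusted p = 0.0763), BE(2)-C JQ1 replicate 1 (0.072) or 2 (0.0681), or BE(2)-C DMSO replicate 2 (0.0637). DHODH, the mitochondrial dehydrogenase of the route, had log2 fold changes of -0.29 and -0.32, and UMPS, which attaches the ring to its sugar, of -0.20 and -0.42. Neither passed in a line or in the average (adjusted p = 0.192 and 0.357). The average of DHODH passed without BE(2)-C DMSO replicate 1 (-0.41, adjusted p = 0.0276). Of the 3 UMPS probe sets tested singly, 1 dimmer one passed in the average (-0.66, adjusted p = 0.0205).

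**Figure D4:**
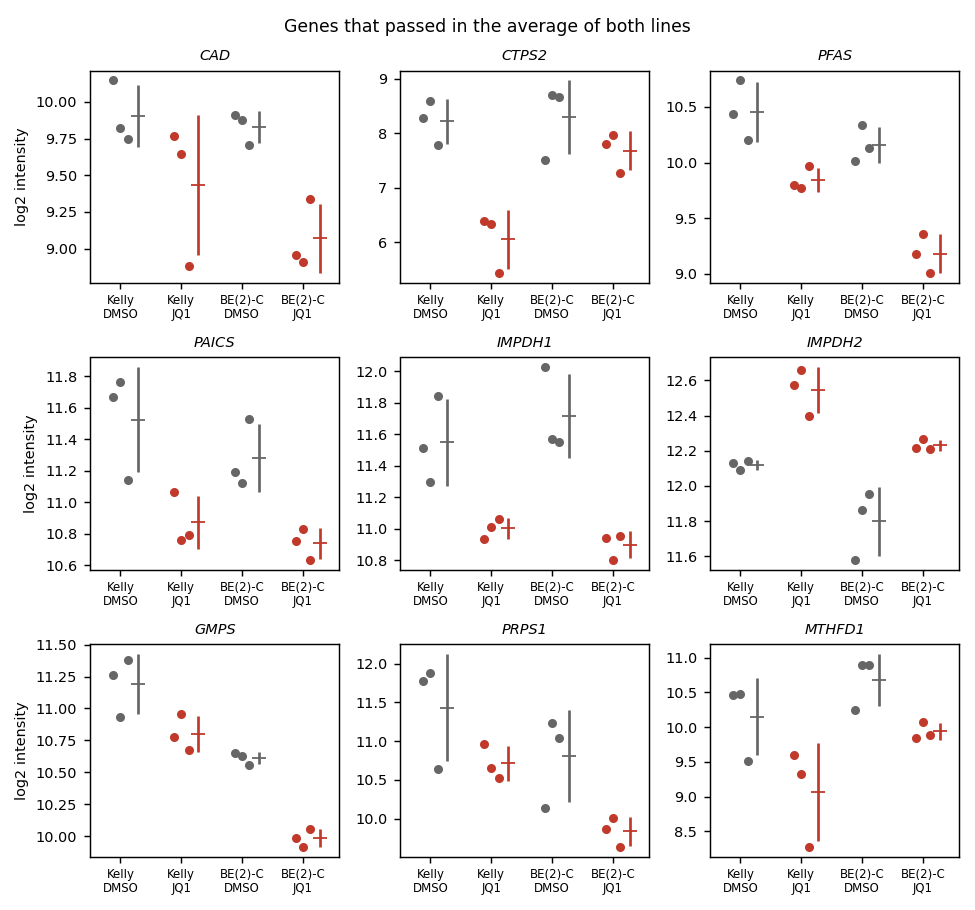
Log2 intensity of the 9 genes that passed in the average of both lines, 1 panel a gene, with a point for each of the 3 arrays of a group and a bar for mean ± SD beside them (grey DMSO, red JQ1). The axes do not start at 0; IMPDH2 is the gene with JQ1 above DMSO, and CTPS2 has a wide gap in Kelly and overlap in BE(2)-C.

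The supply of phosphoribosyl pyrophosphate and the salvage of bases gave 1 gene that fell. PRPS1, a synthetase of that sugar phosphate, read 11.78, 11.88 and 10.64 with DMSO and 10.96, 10.66 and 10.52 with JQ1 in Kelly. PRPS1 in BE(2)-C read 10.14, 11.24 and 11.04 with DMSO and 9.86, 10.00 and 9.64 with JQ1. One DMSO array of each line, Kelly replicate 3 and BE(2)-C replicate 1, was near the JQ1 values; these are also the DMSO arrays with the highest control signal of their line, at 13.3 and 12.9. PRPS1 fell by 0.85 in the average (SE 0.24, adjusted p = 0.0362), and by 0.63 with the control signal as covariate (adjusted p = 0.00337), where the BE(2)-C value of -0.90 passed too (0.00358). The call was lost on leaving out any 1 of 9 arrays (0.0571 to 0.101), all but Kelly DMSO 3, Kelly JQ1 1 and BE(2)-C DMSO 1. When its 2 probe sets were tested singly, with changes of -0.85 and -0.60, neither passed.

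The isoform PRPS2 had a Kelly log2 fold change of -0.71 and a BE(2)-C one of -0.51, with an average of -0.61 (adjusted p = 0.181, or 0.0215 with the replicate number as a block). HPRT1, which salvages hypoxanthine and guanine, had log2 fold changes of -0.34 and -0.30 (average adjusted p = 0.236). APRT, which salvages adenine, had a Kelly log2 fold change of 0.63 and a BE(2)-C one of -0.20, with overlapping groups in both.

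The 2 cytosolic folate enzymes both had negative changes. MTHFD1 interconverts the folate carbon units used for purines and thymidylate. It read 10.46, 10.48 and 9.51 with DMSO and 9.60, 9.32 and 8.28 with JQ1 in Kelly, where the third DMSO array lay among the JQ1 values. The MTHFD1 values in BE(2)-C were 10.24, 10.90 and 10.89 with DMSO and 9.85, 10.07 and 9.89 with JQ1, with no overlap. MTHFD1 fell by 0.91 in the average (SE 0.24, adjusted p = 0.0281), with -1.08 in Kelly (adjusted p = 0.0822) and -0.74 in BE(2)-C (adjusted p = 0.33). With the replicate number as a block the Kelly change passed (adjusted p = 0.0064). The average was lost without Kelly DMSO 1 (0.0796), Kelly DMSO 2 (0.0653), BE(2)-C DMSO replicate 2 (0.0752) or 3 (0.0673), or BE(2)-C JQ1 replicate 1 (0.0717) or 3 (0.0643). SHMT1, which takes the carbon unit from serine, had log2 fold changes of -0.58 and -0.30 (average adjusted p = 0.41), and of -0.19 and -0.22 with the control signal as covariate.

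MTHFD1 was the gene with the E-box nearest to a start among those that fell. The 120 bases that lead up to that start, at chr14:64388233-64388352 on the plus strand (RefSeq GRCh38.p14), are printed with the E-box in capitals, 15 bases before the start.
MTHFD1: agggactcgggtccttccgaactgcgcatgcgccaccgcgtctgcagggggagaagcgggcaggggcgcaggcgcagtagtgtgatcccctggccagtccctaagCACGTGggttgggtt

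The 5 enzymes that make DNA precursors did not pass in either line or in the average of the fit without covariate, where 3 of them had an unadjusted p under 0.05 in the average. RRM2, TYMS, DUT and DTYMK each passed under at least 1 alternative. RRM1, the large subunit of ribonucleotide reductase, had a Kelly log2 fold change of -0.56 and a BE(2)-C one of -0.37 (average adjusted p = 0.31). RRM2, the small subunit, which is known to peak in S phase, read 12.33, 12.29 and 12.18 with DMSO and 12.74, 12.67 and 12.59 with JQ1 in Kelly, where all JQ1 arrays were higher. RRM2 in BE(2)-C read 11.79, 12.01 and 11.81 against 11.80, 11.66 and 11.61, with overlap. Its change was 0.39 in Kelly (SE 0.14, adjusted p = 0.113) and -0.18 in BE(2)-C (adjusted p = 0.743), and with the control signal as covariate the Kelly change of 0.44 passed (adjusted p = 0.0293), as it did with quantile normalization (0.0302) and an offset of 16 (0.0436). The difference of -0.58 between the lines did not pass (adjusted p = 0.297).

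TYMS, which makes thymidylate and is the target of fluorouracil, read 12.88, 12.88 and 12.67 with DMSO and 12.60, 12.58 and 12.58 with JQ1 in Kelly. TYMS in BE(2)-C read 12.16, 12.36 and 12.54 with DMSO and 12.04, 11.96 and 11.82 with JQ1. The groups were apart in both lines, with small changes of -0.22 and -0.41 and an average of -0.31 (SE 0.10, adjusted p = 0.0755). TYMS passed with the control covariate in BE(2)-C (-0.39, adjusted p = 0.0257) and in the average (-0.26, 0.034), and the average also with quantile normalization (0.0404), an offset of 16 (0.0315) and the trend and robust prior (0.0306). DUT, which removes dUTP, had log2 fold changes of -0.38 and -0.48. All 4 DUT probe sets had negative averages, and 1 passed in the average when tested singly (-0.98, adjusted p = 0.0285). Without Kelly DMSO replicate 3 the DUT average passed (-0.55, adjusted p = 0.0232). DTYMK, the thymidylate kinase, had log2 fold changes of -0.58 and -0.73 (average adjusted p = 0.0863, or 0.0282 at -0.72 with the control covariate).

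E2F proteins drive many genes of DNA precursor supply, so 4 forms of their motif were also searched on both strands, TTTCCCGC, TTTCGCGC, TTTGGCGC and TTTGCCGC. They were present in 6 of the 30 genes (20%), namely GART, PRPS2, TYMS, DUT, DCK and SLC19A1, beside 3.99% of all genes, and 0 of the 8 genes that fell in the average held them. The sites of TYMS, at chr18:657603-657632 on the plus strand, and of DUT, at chr15:48332144-48332173 and chr15:48332159-48332188 on the plus strand, show how close they lie to the start, which they precede by 39, 42 and 27 bases, with the motif in capitals.
TYMS: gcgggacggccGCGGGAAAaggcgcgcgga
DUT, first: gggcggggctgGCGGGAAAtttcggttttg
DUT, second: gaaatttcggtTTTGGCGCgctccctgcgg

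Among the nucleoside and nucleotide kinases, TK1 was the 1 called gene, in Kelly. TK1, the cytosolic thymidine kinase of proliferating cells, read 10.74, 10.39 and 10.68 with DMSO and 11.28, 11.39 and 11.10 with JQ1 in Kelly, with all JQ1 arrays higher. The TK1 values in BE(2)-C were 11.46, 11.22 and 11.14 with DMSO and 10.87, 10.84 and 11.17 with JQ1, with overlap. It rose by 0.65 in Kelly (SE 0.17, 1.57-fold, adjusted p = 0.0349), and its change in BE(2)-C was -0.32 (adjusted p = 0.434). The difference of -0.97 between the lines (SE 0.23) did not pass (adjusted p = 0.118), and passed with the control signal as covariate at -0.89 (adjusted p = 0.0197). The Kelly call was lost with the replicate number as a block (adjusted p = 0.0655), with the Kelly arrays fitted alone (0.124), and on leaving out Kelly DMSO 1 (0.0737), Kelly DMSO 2 (0.155), Kelly JQ1 1 (0.076), Kelly JQ1 2 (0.12), BE(2)-C JQ1 1 (0.0592), BE(2)-C JQ1 2 (0.0545) or BE(2)-C DMSO 2 (0.0568). The second probe set of TK1 gave 0.61 in Kelly and did not pass when tested singly (adjusted p = 0.0624, limma).

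Of the other kinases none passed in the fit without covariate, and UCK2 passed in BE(2)-C under alternatives. TK2, the mitochondrial thymidine kinase, had a Kelly log2 fold change of 0.17 and a BE(2)-C one of -0.14. DCK, which activates deoxycytidine and its drug analogues, had log2 fold changes of 0.23 and -0.32. UCK2, the uridine and cytidine kinase, had log2 fold changes of -0.12 and -0.63 (BE(2)-C adjusted p = 0.0695), with JQ1 below DMSO on all arrays of BE(2)-C. That value passed with the control covariate (-0.61, adjusted p = 0.0152), quantile normalization (0.0182), an offset of 16 (0.0475) and the BE(2)-C arrays fitted alone (0.0394). CMPK1, which phosphorylates UMP and CMP, had -0.54 on the log2 scale in Kelly, where all JQ1 arrays were lower, and 0.14 in BE(2)-C.

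Of the 3 carriers, read by their brightest probe sets, SLC19A1 and SLC29A1 had lower means with JQ1 in BE(2)-C and SLC29A2 did not. None was called in the fit without covariate or block. SLC19A1, the reduced folate carrier that also takes up methotrexate, read 10.23, 9.14 and 9.14 with DMSO and 8.37, 8.12 and 8.67 with JQ1 in BE(2)-C, with no overlap. In Kelly it read 9.22, 8.83 and 10.11 against 8.77, 9.15 and 9.93, with overlap. Its change was -1.11 in BE(2)-C (SE 0.38, adjusted p = 0.14) and -0.10 in Kelly (adjusted p = 0.89). The arrays on which it was high, Kelly DMSO 3, Kelly JQ1 3 and BE(2)-C DMSO 1, were the 3 with the highest control signal. With that signal as covariate SLC19A1 fell by 1.20 in BE(2)-C (SE 0.17, adjusted p = 0.000408) and by 0.87 in the average (adjusted p = 0.000263), with a difference of -0.66 between the lines (adjusted p = 0.172). The BE(2)-C change also passed with the replicate number as a block (adjusted p = 0.0436) and with probe sets of broader design left out (-0.97, 0.0331), where the average passed as well (-0.68, 0.0179). Its promoter window held both motifs, an E-box that begins 32 bases after the start and an E2F form 109 bases before it, on the minus strand at chr21:45541797-45541826 and chr21:45541937-45541966.
SLC19A1, E-box: ttcgcgcccaggCACGTGttgcttcgggac
SLC19A1, E2F form: tgtgcagcgggTTTCCCGCcgctcgctttc
SLC29A1, an equilibrative nucleoside carrier, had a Kelly log2 fold change of 0.02 and a BE(2)-C one of -0.58 (adjusted p = 0.112, or 0.0359 with the control covariate), and its paralogue SLC29A2 of 0.23 and 0.07. The probe sets of SLC29A2 were at odds. Of its 3, 1 dimmer probe set tested singly fell by 0.94 in BE(2)-C (adjusted p = 0.0149, limma) and by 0.59 in the average (0.0135).

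The lines also differed before treatment in a few genes. A sign of RNA quality also had unequal means, with overlap under DMSO: the log2 signal of the ACTB 3′ probe set minus that of its 5′ probe set was 1.24, 1.55 and 2.22 for Kelly DMSO and 1.24, 0.63 and 0.87 for BE(2)-C DMSO, beside 1.25, 1.65 and 2.24 for Kelly JQ1 and 0.99, 0.85 and 0.83 for BE(2)-C JQ1. It was highest on both Kelly arrays of replicate 3, and its part in the results was not tested. Under DMSO 2 of the 33 genes were higher in BE(2)-C (6.06%, beside 7.2% of all genes) and 2 were lower (6.06%, beside 7.89%), 15.1% of all genes passing in all. Every BE(2)-C array lay below every Kelly array in 7 genes (21.2%, beside 13.6%) and above in 6 (18.2%, beside 12.1%). HPRT1 was higher by 0.75 (SE 0.21, adjusted p = 0.0297) and TK1 by 0.67 (SE 0.17, adjusted p = 0.0143). CTPS1 was lower, with a log2 fold change of -0.67 (SE 0.17, adjusted p = 0.0145) and so was GMPS, with -0.58 (SE 0.15, adjusted p = 0.0208). With the DMSO arrays fitted alone 1 gene passed, CTPS1, beside 10.6% of all genes. With the control signal as covariate 11 passed, beside 26.5% of all genes, adding APRT, DTYMK, PRPS1, IMPDH2, RRM2, TYMS and CMPK1. The replicate block gave 4, beside 14.6%. The count was 8 without Kelly JQ1 replicate 3 (beside 17.4% of all genes), 2 without BE(2)-C DMSO replicate 2 (10.8%) and 1 without Kelly DMSO replicate 1 (11%). HPRT1 was lost without Kelly DMSO replicate 1 (adjusted p = 0.075) or 3 (0.104), or BE(2)-C DMSO replicate 2 (0.113) or 3 (0.125). GMPS was lost without Kelly DMSO replicate 1 (0.0856) or 3 (0.0672), or BE(2)-C DMSO replicate 2 (0.0644) or 3 (0.073), TK1 without Kelly DMSO replicate 2 (0.0626) and CTPS1 without Kelly DMSO replicate 1 (0.0667). These comparisons share the DMSO arrays with those of JQ1.

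Other genes of the same metabolism were read from a list of 63, of which 55 were measured. In Kelly 4 passed, in BE(2)-C 4 and in the average 8, all lower, beside 4.73%, 2.51% and 7.04% of all genes lower, with a median of 0.00 in the average beside -0.40 for the 33 genes. The widest average among them belonged to MTHFD1L, the mitochondrial enzyme that makes formate. It read 10.60, 10.40 and 10.59 with DMSO and 9.32, 9.21 and 8.48 with JQ1 in Kelly. MTHFD1L in BE(2)-C read 10.27, 9.95 and 10.05 with DMSO and 8.59, 8.56 and 8.35 with JQ1. It fell by 1.53 in Kelly (adjusted p = 0.000865), by 1.59 in the other line (adjusted p = 0.000993) and by 1.56 in the average (SE 0.15, 2.95-fold, adjusted p = 4.08e-05), and the BE(2)-C call was lost with probe sets of broader design left out (0.0803), at an equal size of -1.60. Of 12 folate genes measured beside MTHFD1 and SHMT1, the other called gene was SLC25A32, the mitochondrial folate carrier, at -0.72 in Kelly (adjusted p = 0.0467), a call lost on leaving out any 1 of 10 arrays, all but Kelly DMSO 3 and BE(2)-C DMSO 1 (0.0537 to 0.171). It was also lost with the mean of probe sets (0.22), with probe sets of broader design left out (0.0558, at an unchanged -0.72, since its brightest probe set is not of that design), with the trend and robust prior (0.067) and with the Kelly arrays alone (0.141), and its average call was lost with the mean of probe sets (0.151).

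Of 17 genes of breakdown and pool cleaning, DNPH1, which cleaves damaged deoxynucleotides, fell by 1.41 in Kelly (adjusted p = 0.000748, limma). It also fell, by 0.74, in BE(2)-C (adjusted p = 0.0436). That call was lost on leaving out any 1 of 9 arrays, the 6 of BE(2)-C, Kelly DMSO replicate 1 or 2 and Kelly JQ1 replicate 1. It was also lost with the replicate number as a block (0.0745), with the trend and robust prior (0.059) and with probe sets of broader design left out (0.0526). The 1 probe set of DNPH1 is not of that design. Its value stayed at -0.74 there, and the adjusted p moved through the fit over all genes. DCTPP1, which clears modified dCTP, fell by 1.15 in BE(2)-C (adjusted p = 0.00284). Of 9 other nucleotide kinases and reductase genes, AK4, a mitochondrial adenylate kinase, fell by 1.70 in Kelly (adjusted p = 0.00587), and NME4, a mitochondrial nucleoside diphosphate kinase, by 1.12 in BE(2)-C (adjusted p = 0.0384, lost on leaving out any 1 of 7 arrays, the 6 of BE(2)-C and Kelly DMSO replicate 1). None of 9 other salvage genes, 3 other synthesis genes and 5 other carriers passed in a line or in the average (1, 0 and 0 at an unadjusted p under 0.05 in the average by limma). The widest averages were -0.69 for UPRT, -0.49 for DCTD, -0.19 for PRPSAP2, -0.14 for PRPSAP1, 0.26 for SLC28A1 and 0.22 for SLC29A3.

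The S phase genes measured beside them differed in count between the lines. Of 16 genes of DNA replication and cell cycle 0 passed in Kelly in limma (2 at an unadjusted p under 0.05) and 6 fell in BE(2)-C, beside 6.5% of all genes in Kelly and 2.51% lower in BE(2)-C, with medians of -0.06 in Kelly and -0.60 in BE(2)-C. In the average 5 of the 16 fell, beside 7.04% of all genes lower. Their median there was -0.33, beside -0.40 for the 33 genes. Changes in that average were negative in 93.75% of the 16, 81.82% of the 33 and 39.47% of all genes. GINS1, a subunit of the replicative helicase, fell by 1.12 in BE(2)-C (adjusted p = 0.0014), and its change in Kelly was -0.52 (adjusted p = 0.067). GINS2, CDT1 and CCNA2 fell by 0.99, 0.98 and 0.72 in BE(2)-C, and each of these calls was lost on leaving out single arrays of that line: GINS2 without JQ1 replicate 1 or 2 or DMSO replicate 2, CDT1 without DMSO replicate 1 or any JQ1 replicate, and CCNA2 without JQ1 replicate 2 or 3 or DMSO replicate 3 (adjusted p from 0.0559 to 0.115). The CDT1 call was also lost with the mean of probe sets (0.0502) and with quantile normalization (0.063). In the test of the difference between the lines 0 of the 16 passed, with 8 at an unadjusted p under 0.05. The part of S phase genes in the changes of RRM1, RRM2, TYMS and TK1 was not tested.

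**Figure D5:**
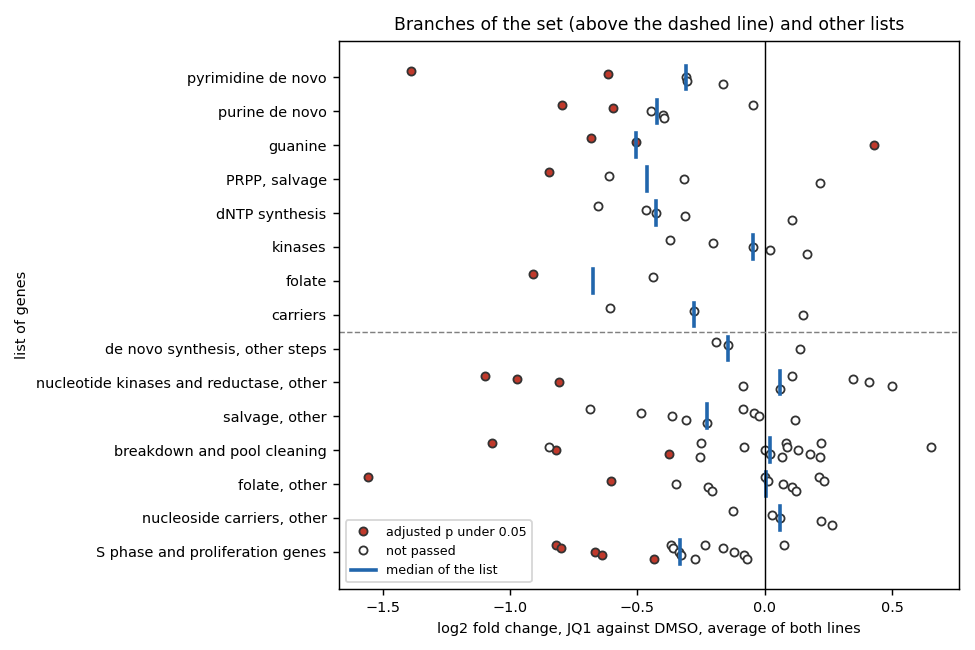
Log2 fold change of JQ1 against DMSO in the average of both lines for the 8 branches of the 33 genes (above the dashed line) and for the other lists (below it); each point is a gene, red for an adjusted p under 0.05, and the blue bar is the median of the list. The medians of the branches lie between -0.05 (kinases) and -0.67 (folate), the medians of most other pathway lists lie near 0, and that of the S phase list is -0.33.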

How the data were processed

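RNA of 12 samples was hybridized to the Affymetrix PrimeView array. The authors processed the arrays with RMA, per the submitters' processing notes, in a version not given in the sources used here. The table deposited by them holds linear intensity (medians from 61.4 to 67.3 by array), of which log2 was taken here with no offset. Coordinates printed are those of RefSeq GRCh38.p14 and were not used to place probes.

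The table held 49395 probe sets, of which 102 were controls, 44988 named 1 gene, 1832 several and 2473 none. Only those naming 1 gene were used, and 99.9% of them matched the gene table by identifier or symbol. Of 18132 genes, 11734 had several probe sets, and the one with the highest mean was taken. The 33 genes had 88 probe sets, with 8 genes read by 1 probe set. Some other genes of the pathway are not analysed here.

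The fit used limma 3.58.1 (R 4.3.3) with 1 mean for each of the 4 groups over 12 arrays (lmFit, contrasts.fit, eBayes). Two-sided p-values were adjusted by Benjamini-Hochberg over 18132 genes, with a threshold of 0.05; "passed", "rose" and "fell" refer to it. The Kelly comparison was checked on simulated data with 200 of 18132 genes changed, fewer than the 1178 called in the real data. It recovered 4.8% of true changes of 0.5 log2 units, 50.8% of those of 1 and 92.4% of those of 2. Of the simulated calls 6.1% were false. A gene that did not pass may therefore still have changed by such modest amounts. The number of arrays limits the precision.

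All 33 genes were to be named, and of other lists up to 4 called genes or the 2 widest. The genes and lists were chosen with earlier results of these data known. The E2F motif forms, the single probe set tests and the test of the control signal's slope were added after seeing the data. Replicate numbers come from the labels. In Kelly, same-numbered DMSO and JQ1 arrays deviated together (correlations of 0.434, 0.228 and 0.515). Pairs of unequal number had -0.559 to 0.463, DMSO 2 with JQ1 1 (0.463) lying above 2 of the same-numbered pairs. In BE(2)-C the correlations were -0.071, 0.527 and -0.744, and the numbers did not pair the arrays. The block fit nevertheless treated same-numbered arrays as pairs in each line. For the lines under DMSO the block was instead an effect of the replicate number shared by the lines. Correlations between arrays were 0.962 to 0.996 within groups. Alternatives covered the probe set rule, quantile normalization, an offset of 16, a filter on dim genes, the prior, the arrays fitted, the block, the control signal and each array left out.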

Additional observations from a re-analysis of the deposited data

How the results depend on the processing

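The count of the 33 genes called in the average of both lines, 9, stayed within 1.5 times under each alternative run (6 to 12 on leaving out 1 array). Among all genes 7.5% to 13.6% passed in that average on leaving out 1 array. In Kelly the count of 2 became 4 with quantile normalization, 5 with an offset of 16, 1 with the Kelly arrays fitted alone and 8 with the control signal as covariate, and 1 to 6 on leaving out 1 array. The shares of all genes passing there were 8.11%, 6.9%, 3.22%, 12.6% and 3.33% to 12%, in the same order. In BE(2)-C the count of 3 became 5 with its arrays alone (beside 4.7% of all genes), 13 with the covariate (15.2%) and 1 to 6 on leaving out 1 array (1.78% to 6.67%). The difference between the lines had 0 calls, 2 with the covariate (beside 3.78% of all genes) and 0 to 0 on leaving out 1 array (0.215% to 1.17%). Under DMSO the count of 4 between the lines became 1 with those arrays alone (beside 10.6% of all genes), 11 with the covariate (26.5%) and 1 to 8 on leaving out 1 array (10.8% to 17.4%). The cause of these shifts was not tested. All genes called in Kelly numbered 1178, 584 with its arrays alone and 2293 with the covariate. With the replicate number as a block the counts were 2 in Kelly, 3 in BE(2)-C, 12 in the average, 0 in the difference and 4 under DMSO; among the 33 genes it changed the calls of GART, ATIC, PRPS2, GMPS, TK1, MTHFD1 and SLC19A1 given above and no others in these comparisons. The average and the difference cannot be fitted on the arrays of 1 line alone. No result turned from a call in one direction to a call in the other. TK2 had the lowest mean of the 33 genes, 6.15, beside background probe set medians of 3.91 to 4.55 by array, and single background probe sets reached 11.78.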

Other observations

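Under DMSO the widest differences between the lines among the pathway genes measured were those of NT5E, DPYD, AK4 and DNPH1; these 4 genes were picked after their values were seen. NT5E, a surface enzyme that turns AMP into adenosine, read 4.54, 4.01 and 4.78 in Kelly with DMSO and 7.40, 7.78 and 8.13 in BE(2)-C with DMSO, a difference of 3.33 (SE 0.26, adjusted p = 1.83e-06, limma). Its JQ1 changes were -0.07 in Kelly and 0.25 in BE(2)-C, neither past the threshold. The Kelly values of NT5E lay near the background probe set medians of 3.91 to 4.55 per array. That floor may limit both the size of the difference and the Kelly change. DPYD, which starts the breakdown of uracil and thymine and of fluorouracil, read 5.64, 5.66 and 4.93 in Kelly and 6.58, 7.99 and 8.29 in BE(2)-C, a difference of 2.21 (SE 0.38, adjusted p = 0.00132). AK4, the mitochondrial adenylate kinase, was lower in BE(2)-C, at 6.76, 7.33 and 7.26 beside 9.64, 9.60 and 8.36 in Kelly, with a log2 fold change of -2.08 (adjusted p = 0.000496). DNPH1 was higher in BE(2)-C by 1.33 (adjusted p = 0.000277). The calls of these 4 genes passed under each alternative run. Of the 17 breakdown genes 4 were higher and 1 lower in BE(2)-C, beside 7.2% and 7.89% of all genes. They included AMPD2, higher, whose call was lost on leaving out any 1 of 10 arrays and under 6 other alternatives. The lower gene was ADA, whose call was lost on leaving out any 1 of 6 arrays.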
